A study of Mus musculus with 2 samples.

Results

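Lymphatic endothelial cells that were placed together by their UMIs of Nts, Pkhd1l1 and Fgl2 were described in 2 single-cell libraries from mouse lymph nodes. They numbered 329 of 3779 lymphatic endothelial cells (8.71%, 95% exact binomial interval 7.83 to 9.65%) and of 9919 cells kept in all. A cell was called lymphatic when its UMIs (unique molecular identifiers, tags that mark single captured RNA molecules) of Prox1, Pdpn, Mmrn1 and Lyve1 summed to at least 2 and exceeded those of the blood endothelial genes Flt1, Ly6c1 and Cd34. It was then placed by 5 panels of 3 genes each, so the cells were chosen by measured UMIs. The 329 cells held at least 2 UMIs of Nts, Pkhd1l1 and Fgl2 together and fewer UMIs of each other panel; they are called Nts/Fgl2 cells here, after the panel genes with the most UMIs in most of them, and members in the figures. Pkhd1l1, which their working name also held, had the most in only 13 cells and was found in 46.2%. The other panels, led by Coch and Bmp2, by Ackr4, by Marco, and by Ptx3 and Mrc1, held 1138, 1298, 517 and 295 cells, and 202 lymphatic cells fell in none.

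Lymphatic endothelium lines the sinuses through which lymph crosses a node and the collecting vessels that carry it in and out, and it differs between the roof and floor of the subcapsular sinus, the cortex, the medulla and the valves. Nts encodes neurotensin, a secreted peptide best known from the gut and the nervous system. Pkhd1l1 encodes fibrocystin-L, a very large membrane protein related to the product of the polycystic kidney gene Pkhd1. Fgl2 encodes fibrinogen-like protein 2, which occurs as a membrane-bound prothrombinase and as a secreted immunoregulatory protein.

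Endothelial cells were sorted from nodes after digestion and depletion of CD45+ cells. Each library pooled 4 hashtagged groups, peripheral and mesenteric nodes of WT and of Xbp1-KO mice, so that each group had 2 pools, 1 in each library. All mice, WT included, received tamoxifen. The labels give neither the Cre line, nor the deleted part of Xbp1, nor the age, sex or number of animals in a pool, so the p-values below measure the spread between pools, which may be technical. Library 1 held 7709 barcodes and library 2 held 2903, and 3 barcodes occurred in both, 1 of them in an Nts/Fgl2 cell. Xist, transcribed from the inactive X chromosome, reached 749 and 393 CPM (the UMIs of a gene scaled to a total of 1000000 UMIs in the sum) in Nts/Fgl2 cells of the Xbp1-KO pools of library 1 against 14.0 and 0 in its WT pools, whereas in library 2 it reached 592 and 871 CPM in the WT pools against 4.81 and 0 in the Xbp1-KO pools. Y-linked Ddx3y mirrored Xist, with 88.4 and 71.9 CPM in the WT pools of library 1 and 0 in its Xbp1-KO pools. In library 2 the WT pools had 0 and the Xbp1-KO pools 81.8 and 67.4 CPM of Ddx3y. Genotype was therefore crossed with Xist and Ddx3y, in opposite directions in the 2 libraries. A genotype difference within 1 library cannot be told apart from one that goes with the sex these 2 genes mark.

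The label was set against genes outside the rule, as a description. Of 12 lymphatic identity genes, 10 had a higher pooled level than in blood endothelial cells, but the list summed to 7164 against 5575 CPM, because Ccl21a (1075 against 4017 CPM) and Sox18 (279 against 565 CPM) ran the other way. Flt4, the receptor of lymphangiogenic growth factors, was detected in 64.1% of the Nts/Fgl2 cells and 11.6% of 5753 blood endothelial cells, and the transcription factor Tbx1 in 56.2% and 2.29%, with median depths of 4312 and 2871 UMIs. The pan-endothelial receptor gene Kdr was detected in 85.7% and 84.0%. Prox1, which defines lymphatic endothelium and is one of the 4 genes that the rule sums, was detected in 82.7% of the Nts/Fgl2 cells. Ptprc, the gene of CD45, had 0 UMIs in 1543194. Of 14 blood-cell genes 5 had any UMI, and their summed level ranged from 0 to 21 CPM over the 8 pools. The rule itself keeps Flt1, Ly6c1 and Cd34 low: they were all at 0 in 275 of the 329 cells, and the cell with the most had 14 UMIs of them.

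The panel sums of the members ran from 2 to 346 UMIs with a median of 9. Just inside the threshold stood 27 cells with a sum of 2 and 26 with a sum of 3, and 158 cells had 10 or more. Just outside stood 37 lymphatic cells of no panel with a sum of 1. A further 519 lymphatic cells had 2 or more UMIs of the 3 genes but at least as many of another panel, 34 of them tied. The lead over the next panel was a single UMI in 52 members, and 30 members had no UMI of any other panel.

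Nts was detected in 73.6% of the Nts/Fgl2 cells, Fgl2 in 59.3% and Pkhd1l1 in 46.2%. These shares describe genes that chose the cells and were not tested. In blood endothelial cells, Nts was detected in 1.44% of cells of library 1 and 0.388% of library 2. Fgl2 was detected in 1.59% and 0.943% of them, and Pkhd1l1 in 0.608% and 0.222%. Median depth was 3790 UMIs in members and 2586 in blood endothelial cells of library 1, and 5251 and 3504 in library 2. With each cell thinned to 2000 UMIs, Nts was detected in 68.6% and 67.4% of members for libraries 1 and 2. In blood endothelial cells it was then detected in 0.940% and 0.0631%.

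The 3 genes overlapped only in part. Nts alone of the 3 was found in 89 cells, Nts with Fgl2 in 59, Pkhd1l1 with Fgl2 in 55, all 3 in 52, Nts with Pkhd1l1 in 42, Fgl2 alone in 29 and Pkhd1l1 alone in 3. Nts was unevenly spread, since the 33 cells with the most Nts held 53.7% of its 4462 UMIs and 1 cell held 346. That share was not computed for Fgl2 and Pkhd1l1. The highest count in a cell was 28 for Fgl2, of 811 UMIs in all, and 7 for Pkhd1l1, of 283.

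In library 1 the Nts level was 2587 CPM in peripheral and 3629 CPM in mesenteric cells of WT, and 2512 and 6141 CPM in those of Xbp1-KO. In library 2 it was 2625, 5550.4, 1665 and 2907 CPM in the same order. Nts helped to choose the cells and a few cells held most of its UMIs, so these levels are a description from which no tissue difference is read. Fgl2 was at 500.1, 662, 407 and 688 CPM in library 1 and at 481, 577, 698 and 354 CPM in library 2. Pkhd1l1 was at 209, 125, 177 and 246 CPM in library 1 and at 166, 178, 236 and 118 CPM in library 2. For these 2 genes, which also chose the cells, the pools overlapped.

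**Figure D1:**
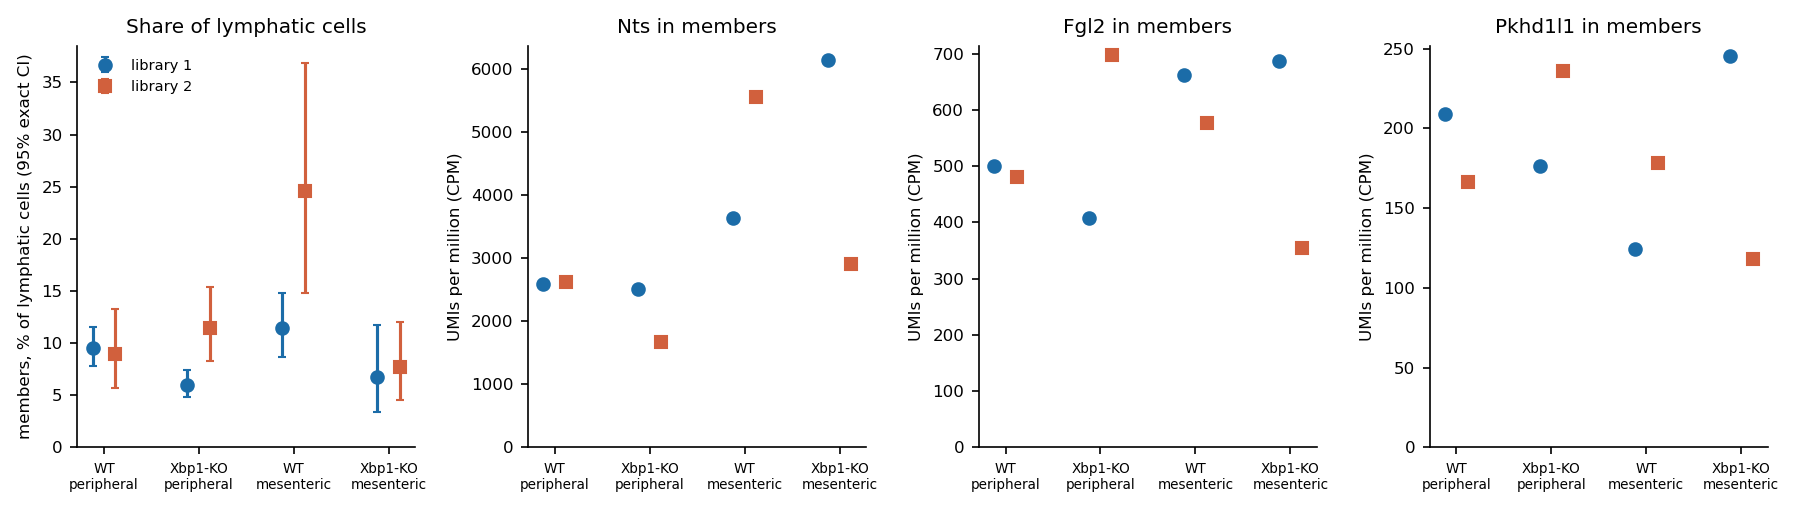
Left, share of lymphatic endothelial cells that met the rule, in percent with 95% exact intervals, for each pool of library 1 (circles) and library 2 (squares); right, CPM of Nts, Fgl2 and Pkhd1l1 in these cells by pool. The CPM are of genes that chose the cells and are a description; the WT mesenteric share of library 2 (24.6%) is the highest of the 8.

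The share of lymphatic cells that met the rule in library 1 was 9.57% (7.81 to 11.6%) for peripheral and 11.5% (8.65 to 14.8%) for mesenteric nodes of WT, and 6.01% (4.79 to 7.44%) and 6.71% (3.4 to 11.7%) for those of Xbp1-KO. In library 2 it was 8.98% (5.71 to 13.3%), 24.6% (14.8 to 36.9%), 11.4% (8.23 to 15.4%) and 7.69% (4.54 to 12%) in the same order. The Xbp1-KO share was the lower in both tissues of library 1 and in the mesenteric nodes of library 2, and the higher in the peripheral nodes of library 2. With cells thinned to 2000 UMIs the mesenteric pair of library 1 turned, at 11.7% (16 of 137) for Xbp1-KO against 9.80% (34 of 347) for WT. The intervals cover counting error only, and the share of library 2's WT mesenteric pool rests on 16 of 65 cells.

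Nts lies on chr10:102481756-102490486 on the minus strand, Fgl2 on chr5:21372642-21378374 and Pkhd1l1 on chr15:44457494-44601369, both on the plus strand (GRCm38, GENCODE M21). The 300 bases from 250 before to 50 after the annotated start (RefSeq, GRCm38.p6) are shown for Nts (chr10:102490369-102490668, minus strand) and Fgl2 (chr5:21372423-21372722, plus strand), because these are the genes that lead most of the cells and split them into the groups described next. Capitals mark matches to the AP-1 motif, written TGANTCA and the same on both strands.
Nts: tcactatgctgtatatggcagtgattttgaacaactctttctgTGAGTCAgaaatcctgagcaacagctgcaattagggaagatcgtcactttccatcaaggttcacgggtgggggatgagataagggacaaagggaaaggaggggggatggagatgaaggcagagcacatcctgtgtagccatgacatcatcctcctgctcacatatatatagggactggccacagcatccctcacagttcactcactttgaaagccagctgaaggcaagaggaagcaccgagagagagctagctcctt
Fgl2: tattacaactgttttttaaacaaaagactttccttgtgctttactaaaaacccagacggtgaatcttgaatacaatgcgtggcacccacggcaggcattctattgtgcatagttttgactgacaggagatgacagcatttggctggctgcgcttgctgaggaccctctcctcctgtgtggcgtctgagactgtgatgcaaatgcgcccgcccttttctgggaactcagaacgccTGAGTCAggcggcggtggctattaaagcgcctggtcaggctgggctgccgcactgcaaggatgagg
The match lies at bases -207 to -201 of the Nts start and at -16 to -10 of the Fgl2 start. TGANTCA occurs in 7.81% of the 32851 promoters of the same length. The cyclic AMP element TGACGTCA, found in 1.79% of promoters, has no match in either window. CCACG, searched on both strands and found in 32.8% of promoters, occurs at 2 places in the Fgl2 window and has no match in the Nts window.

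The cells fell into groups by the gene with the most UMIs. Nts led in 190 cells (57.8%), Fgl2 in 98 (29.8%) and Pkhd1l1 in 13, and 28 were tied. The Nts-led share in library 1 was 49.5% for peripheral and 56.9% for mesenteric cells of WT, and 63.3% and 72.7% for those of Xbp1-KO. In the same order it was 54.5%, 50%, 63.2% and 70.6% in library 2. These shares are made from the values that chose the cells, and no genotype difference is read from them. The Xbp1-KO mesenteric pools hold 11 and 17 cells, and in library 2 the Xbp1 count of these cells went against the labels, as given below.

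Genes outside the rule separated Nts-led from Fgl2-led cells in both libraries, which is a description of cells that were divided on their own counts. Among 1660 genes at 100 CPM or more in either group, 26 (1.57%) were higher in Nts-led cells by a log2 ratio of at least 1 in both libraries, and 22 (1.33%) were higher in Fgl2-led cells. Csf1, the growth factor of macrophages, was at 347 and 338 CPM in Nts-led cells of libraries 1 and 2 and at 67.0 and 101 CPM in Fgl2-led cells. Nupr1, a stress-induced nuclear protein, was at 560 and 520 CPM against 39.4 and 113 CPM. The adhesion molecule Vcam1 was at 279 and 484 CPM against 114 and 59.2 CPM. Clu, Odc1, Cfb, Anxa1, Cxcl10 and Fxyd5 also stood on the Nts-led side in both libraries. A cell with many Nts UMIs can hold more UMIs of another panel and still meet the rule. Pooled over both libraries, Bmp2 was at 48.9 CPM in Nts-led and 9.47 CPM in Fgl2-led cells, and Marco at 32.6 and 4.73 CPM. Mrc1 and Ptx3 went the other way, at 21.4 and 26.0 and at 16.3 and 16.6 CPM. The part of this in the levels of Clu and the other genes was not tested.

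On the Fgl2-led side, Gpihbp1, which holds lipoprotein lipase at the vessel wall, was at 236 and 190 CPM in Fgl2-led cells and at 65.9 and 36.5 CPM in Nts-led cells. Lpl, lipoprotein lipase itself, was at 236 and 166 CPM against 35.3 and 54.7 CPM, and the fatty-acid carrier Fabp4 at 4237 and 3567 CPM against 1846 and 1475 CPM. The matrix genes Fndc1, Prelp, Ecm2 and Abi3bp and the secreted factors Ptn and Ntn1 stood on the same side. Other matrix and lipid genes did not: the collagen Col12a1 was at 216 and 66.9 CPM in Nts-led cells against 70.9 and 11.8 CPM, and the fatty-acid receptor Cd36 at 771 and 824 against 568 and 539 CPM.

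Igfbp5, a secreted binder of insulin-like growth factors, and Lcn2, an iron-carrier binder of innate defence, were also higher in Fgl2-led cells. Igfbp5 was at 1352 and 1688.5 CPM there and at 500 and 125 CPM in Nts-led cells, and Lcn2 at 481 and 806 CPM against 121 and 219 CPM. Ccl21a (ENSMUSG00000094686), a chemokine that draws T cells and dendritic cells into nodes, was at 3528 and 2429 CPM against 140 and 97.3 CPM. Ccl21a has near-identical copies in the mouse genome and is uncertain, and blood endothelial cells of these libraries held 4017 CPM of it.

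Igfbp5 and Ccl21a were carried by few of the cells. Lcn2 was spread more widely, in 132 of 329 cells, with 59.7% of its 469 UMIs in the top 33. Igfbp5 was detected in 76 of 329 cells, and the 33 cells with the most held 88.7% of its 1382 UMIs. Ccl21a was detected in 50 cells, the top 33 of which held 99.0% of its 1659 UMIs, and 17 cells had both. Of the 76 cells with Igfbp5, 66 had Fgl2, 50 had Pkhd1l1, 49 had Nts and 53 had Lcn2, and of the 109 cells with Csf1, 97 had Nts and 15 had Igfbp5. Each of the 3 genes that admit a cell was thus found in more of the Igfbp5 cells than not, and these genes chose the cells.

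**Figure D2:**
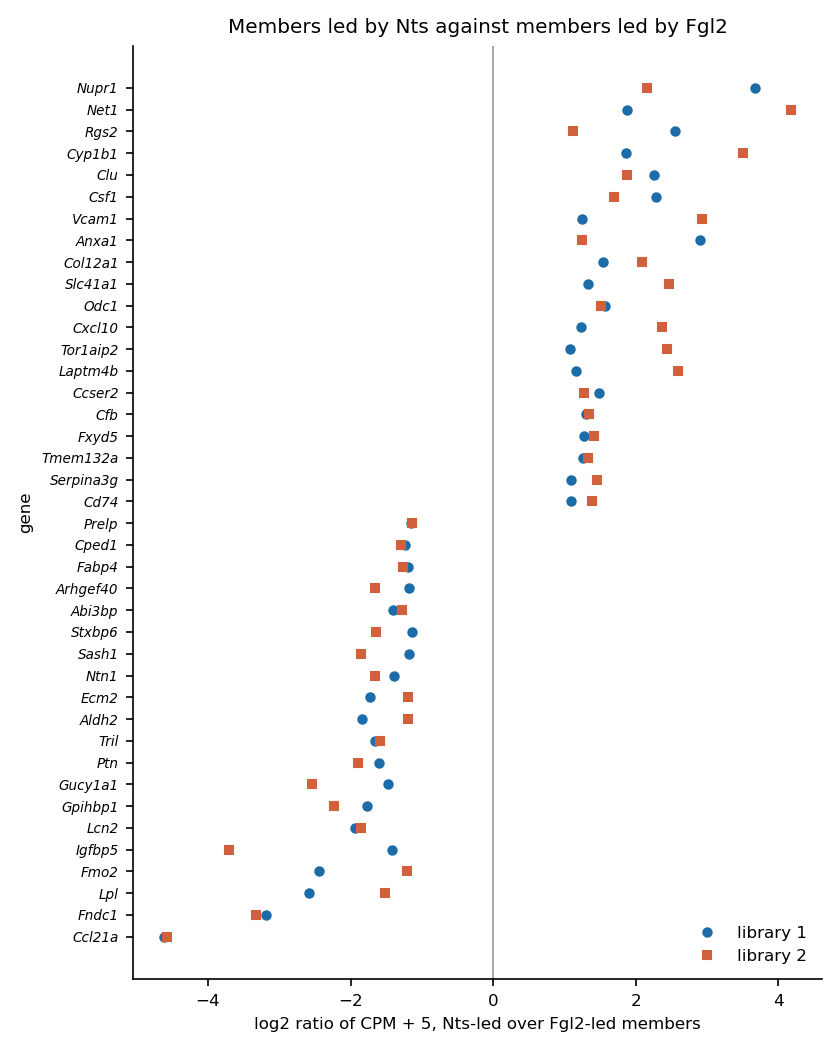
Log2 ratio of CPM (5 CPM added) in cells led by Nts over cells led by Fgl2, for the 20 genes furthest on each side, in library 1 (circles) and library 2 (squares). Nupr1, Clu and Csf1 lie right of 0 and Ccl21a, Fndc1, Lpl and Igfbp5 left of it in both libraries.

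Set against the cells of the other panels in the same pool, the Nts/Fgl2 cells carried more Igfbp5, Lcn2, S100a6, Cd9, Serpine2 and Ntn1, and less Glycam1, Ccl20, Il4i1, Madcam1 and Cxcl10. Because every gene of a cell can go with the genes that placed it, these levels are given with no test. Of 3775 genes with at least 50 CPM in either class, 129 (3.42%) were higher by a mean log2 ratio of at least 1 and in 8 of 8 pools, and 286 (7.58%) were lower. With each cell thinned to 2000 UMIs, 81 were higher and 275 lower of 3901 genes; median depth was 4312 UMIs in the Nts/Fgl2 cells and 5364 to 6122 in the cells of the other 4 panels. The median log2 ratio over the 3775 genes was -0.11.

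Among the genes that were higher, Igfbp5 averaged 854 ± 333 CPM (SD, n = 8 pools) against 56.9 ± 49.2 in the other panels, and its lowest pool in Nts/Fgl2 cells, 599 CPM, stood above its highest in the others, 152 CPM. Lcn2 averaged 363 ± 205 CPM against 42.8 ± 32.8. S100a6, a calcium-binding protein, averaged 1217 ± 487 CPM against 162 ± 97.0, and the tetraspanin Cd9 1279 ± 585 against 323 ± 180.4. Serpine2, an inhibitor of thrombin and plasminogen activators, averaged 199.9 ± 80.5 CPM against 28.5 ± 21.3, and the guidance factor Ntn1 159 ± 31.7 against 32.0 ± 9.93. Neo1, a receptor of netrins, averaged 80.1 ± 71.4 CPM against 4.38 ± 5.04 and was detected in 25 cells with 87 UMIs in all.

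For 21 of the 25 genes with the highest ratios, the Ackr4 cells had the highest level among the other 4 panels. Nearness over all genes was not measured. Pooled over both libraries, S100a10, a partner of annexin A2 in plasmin formation, was at 1594 CPM in Nts/Fgl2 cells, 973 in Ackr4 cells and 55.8 to 278 in the other 3 panels. S100a6 was at 1063, 280.3 and 9.78 to 77.5 CPM, and Tmsb4x, an actin binder, at 6759, 3718 and 494 to 2338 CPM in the same order. Ackr4 itself, which belongs to the rule of the other panel, was at 397 CPM in the Nts/Fgl2 cells and 1042 CPM in the Ackr4 cells.

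Among the genes that were lower, 9 of the 15 with the lowest ratios were highest in the Coch and Bmp2 cells and the other 6 in the Marco cells. Ccl20, the chemokine ligand of CCR6, had 0 UMIs in the Nts/Fgl2 cells and 302 ± 153 CPM in the other panels. Glycam1, a mucin of high endothelial venules, averaged 158 ± 208 CPM against 3477 ± 1604. Madcam1, the gut-homing addressin, averaged 9.73 ± 16.5 CPM against 282 ± 104.9, and Clu, a secreted chaperone, 374 ± 196 against 4689 ± 1545. The interferon-induced chemokine Cxcl10 averaged 60.1 ± 59.2 CPM against 692 ± 253.

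**Figure D3:**
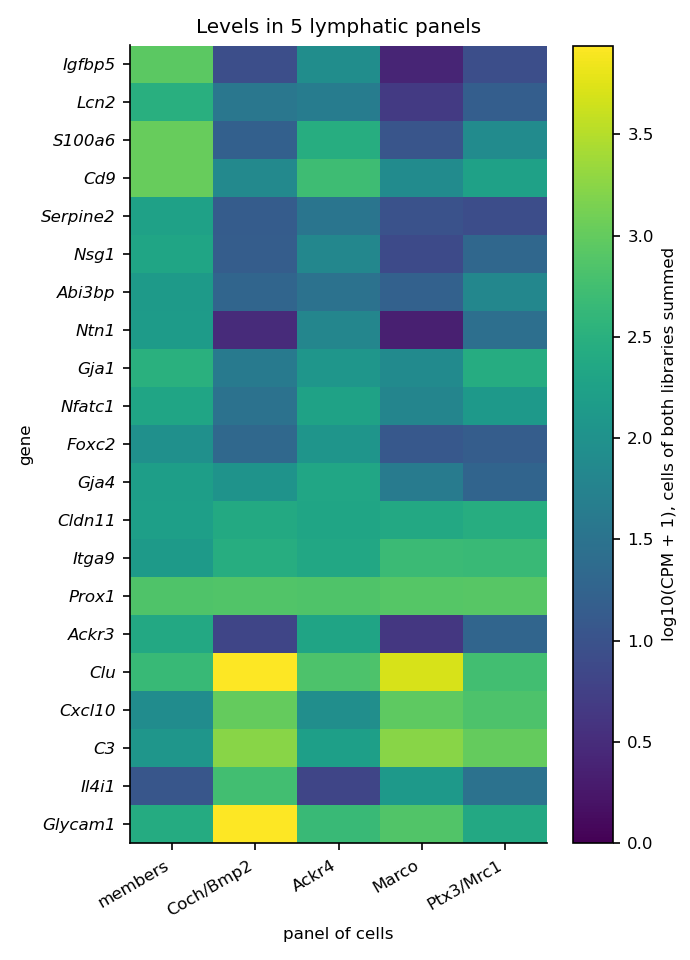
Heat map of log10(CPM + 1), cells of both libraries summed, for 21 genes (rows) in the 5 panels of lymphatic cells (columns). Igfbp5, Lcn2 and S100a6 are brightest in the first column, Foxc2 and Nfatc1 are shared with the Ackr4 cells, and Clu, C3 and Il4i1 are brightest in the Coch/Bmp2 or Marco columns.

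Genes of lymphatic valves and collecting vessels were mixed. Of the 20 listed genes at 50 CPM or more, 7 were higher and 3 lower in 8 of 8 pools; the shares of all 3775 genes at that level that did so were 9.51% and 14.1%. Nfatc1, a transcription factor of valve formation, averaged 233 ± 94.3 CPM against 97.3 ± 16.9 in the other panels. Foxc2, required for valves, averaged 107 ± 57.5 CPM against 53.8 ± 15.8, and was pooled at 92.7 CPM against 112 CPM in the Ackr4 cells and 11 to 20.2 CPM elsewhere. Gja1, which encodes connexin 43, was at 311 CPM against 116 CPM in the Ackr4 cells and 269.5 CPM in the Ptx3 and Mrc1 cells. Itga9, the integrin of valve leaflets, was lower than in the other panels in 8 of 8 pools, at 124 ± 34.9 against 292 ± 61.7 CPM, and Cldn11 in 7 of 8.

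The same counts, over genes at 50 CPM or more and to be read against those shares of 9.51% higher and 14.1% lower, are given for other groups. Of 7 complement genes 1 was higher and 4 lower in 8 of 8 pools: C3 was at 97.5 ± 78.4 against 1185 ± 514 CPM and the regulator Cd55 at 348 ± 215 against 1901 ± 421 CPM. Of 11 genes of coagulation and fibrinolysis 4 were higher, among them Plat, tissue plasminogen activator, at 238 ± 149.6 against 65.4 ± 24.7 CPM, and 2 were lower. Of 12 genes of antigen presentation 0 were higher and 6 lower, B2m among them at 3569 ± 949.7 against 5688 ± 967 CPM.

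Genes around neurotensin were seen in part. Of 13 genes for prohormone processing and neurotensin receptors, 8 had any UMI in the Nts/Fgl2 cells. The prohormone convertases Pcsk1 and Pcsk2 and the receptors Ntsr1 and Ntsr2 had 0 UMIs in 1543194, which allows at most 3 UMIs each. Cpe, the carboxypeptidase that trims peptide precursors, was at 601 ± 154 CPM, below the 1435 ± 257 CPM of the other panels in 8 of 8 pools.

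How many genes differed between peripheral and mesenteric nodes depended on the pools used. The Nts/Fgl2 cells of mesenteric nodes carried more Vwf and Mgll, and those of peripheral nodes more Fosb and Ccn1. These 4 genes lay on the same side in each of the 4 pairs of the other panels too, Mgll by less than 1 CPM in the WT pair of library 2. In the quasi-likelihood fit of edgeR on the 8 sums of member cells, 4 of 3521 genes (0.114%) passed a Benjamini-Hochberg adjusted p of 0.05, 2 in each direction. A block for the library raised this to 15 genes (0.426%), and 18 passed without library 1, 100 without library 2, and 25 and 37 without the Xbp1-KO mesenteric pool of library 1 and of library 2.

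Vwf, the clotting protein that marks blood endothelium and part of lymphatic collecting vessels, was at 14.0, 26.9, 0 and 14.4 CPM in the peripheral pools (WT and Xbp1-KO of library 1, then of library 2) and at 105, 418, 294 and 177 CPM in the mesenteric pools in the same order. The groups did not overlap. The log2 fold change of peripheral against mesenteric cells was -3.78 ± 0.48 (SE), with an edgeR adjusted p of 0.00112 and the same direction in 4 of 4 pairs. It rests on 106 UMIs in 39 cells. In the mesenteric pools of library 1, 1 cell held 8 of 22 UMIs for WT and 12 of 17 for Xbp1-KO. In those of library 2, 1 cell held 14 of 28 for WT and 9 of 21 for Xbp1-KO. The Xbp1-KO mesenteric pool of library 1 also had 344 CPM of Flt1, Ly6c1 and Cd34 together, against 10.5 to 89.8 CPM in other pools. In the other panels Vwf was at 3.64 ± 2.83 CPM (n = 4) in peripheral and 35.9 ± 25.2 CPM in mesenteric cells. Of 14 blood endothelial genes outside the rule, Vwf included, 13 had UMIs in the Nts/Fgl2 cells and Esm1 had 0, and their summed level was 2570 to 2738 CPM in peripheral and 2886 to 3464 CPM in mesenteric pools; the part of blood endothelial RNA in the Vwf difference was not tested.

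Mgll, monoglyceride lipase, was at 90.7, 71.9, 73.9 and 67.4 CPM in peripheral and at 283, 73.7, 209.8 and 312 CPM in mesenteric pools, and the groups overlapped through the Xbp1-KO mesenteric pool of library 1. Its log2 fold change was -1.64 ± 0.31 (edgeR adjusted p = 0.0496). Without the Xbp1-KO mesenteric pool of library 2 it was -0.76 (adjusted p = 0.658), and the call was also lost without any of the 4 peripheral pools, without the WT mesenteric pool of library 1 and without library 2.

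Fosb, an AP-1 transcription factor of the immediate early response, was at 1519, 1204, 1544 and 1362 CPM in peripheral and at 408, 1155, 367 and 859 CPM in mesenteric pools, with no overlap. Its log2 fold change was 1.17 ± 0.19 (edgeR adjusted p = 0.0194). Ccn1, a matrix protein induced by YAP signalling, was at 1500.3, 2269.6, 1904 and 1424 CPM against 556, 762, 797 and 1112 CPM, also with no overlap, and its log2 fold change was 1.14 ± 0.21 (edgeR adjusted p = 0.0496). In the other panels Fosb was at 1121 ± 46.4 CPM (n = 4) in peripheral and 663 ± 282 CPM in mesenteric cells, and Ccn1 at 1365 ± 184 and 511 ± 203 CPM. The test of the difference between classes called 0 of Vwf, Mgll, Fosb and Ccn1. The call of Ccn1 was lost without library 1 (0.82, adjusted p = 0.0720), without its WT mesenteric pool or without its Xbp1-KO peripheral pool.

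Of the 20 genes of the response to tissue dissociation that includes Fosb, 18 were tested; 1 was called higher and 0 lower in peripheral cells, 17 had positive values and the median log2 fold change was 0.38, against -0.01 over all 3521 genes. Other lists leaned the same way with 0 calls: 24 of 25 tested interferon-stimulated genes were positive with a median of 0.53, and 11 of 11 genes of antigen presentation with a median of 0.46. The summed level of the dissociation list was 29564, 30771, 37786 and 34400 CPM in peripheral and 14906, 32820, 19526 and 26101 CPM in mesenteric pools. The protocol in the labels describes the digestion of peripheral nodes only, so the handling of the nodes and the tissue cannot be told apart.

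Several genes just missed the threshold and are given as values. The immediate early genes Egr1 and Fos were at 2035 ± 304 and 5814 ± 367 CPM (n = 4 pools) in peripheral and 1014 ± 575 and 3748 ± 1336 CPM in mesenteric cells (log2 fold changes 1.13 ± 0.22 and 0.70 ± 0.15, edgeR adjusted p = 0.0566 and 0.0704). Gpihbp1 was at 61.9 ± 22.9 CPM (n = 4 pools) in peripheral and 204 ± 86.5 CPM in mesenteric cells (log2 fold change -1.65 ± 0.34, edgeR adjusted p = 0.0681). Adm, the lymphangiogenic peptide adrenomedullin, was at 41.8 ± 30.7 and 130.3 ± 12 CPM (-1.82 ± 0.40, edgeR adjusted p = 0.0704). F8, coagulation factor VIII, was at 265 ± 118 and 57.0 ± 48.3 CPM (2.01 ± 0.43, edgeR adjusted p = 0.0704). Among 20 tested genes of valves and collecting vessels 0 were called, 11 were positive and the median log2 fold change was 0.22, towards peripheral. Of these, Foxc2 was at 74.2 ± 19.3 and 139 ± 67.3 CPM and Nfatc1 at 167 ± 22.9 and 299.9 ± 91.7 CPM, both higher in the mesenteric pool of 4 of 4 pairs (edgeR adjusted p = 0.582 and 0.391).

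The tissue difference of the Nts/Fgl2 cells was then set against that of the other lymphatic panels in the same pools, in an edgeR fit of 16 sums with the pool as a block. The 2 tissue differences differed in 40 of 7274 genes (0.55%): in 29 (0.399%) the Nts/Fgl2 cells leaned more to the peripheral side and in 11 (0.151%) more to the mesenteric side. Without the pool as a block 2 genes passed. The other panels are a mixture whose make-up varies by pool, with Ackr4 cells between 25.6% and 58.1% and Marco cells between 6.47% and 34.5% of them; the part of that mixture in these differences was not tested.

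Igfbp5 gave the smallest p. In the Nts/Fgl2 cells it was at 1433, 629, 961 and 669 CPM in peripheral and 599, 1277, 609 and 657 CPM in mesenteric pools, which overlapped. These levels rest on few cells: 1 cell held 134 of 210 Igfbp5 UMIs in the Xbp1-KO peripheral and 43 of 52 in the Xbp1-KO mesenteric pool of library 1. In library 2 it was 55 of 104 for WT and 75 of 139 for Xbp1-KO in peripheral, and 53 of 78 for Xbp1-KO in mesenteric nodes. In the other panels it was at 18.1, 27.3, 14.9 and 9.54 CPM in peripheral and 86.7, 78.0, 152 and 68.3 CPM in mesenteric pools, with no overlap. The difference between the log2 fold changes was 2.74 ± 0.29 (edgeR adjusted p = 5.3e-11, 4 of 4 pairs). The level in the other panels thus went with tissue, and in the Nts/Fgl2 cells the log2 fold change was 0.23 ± 0.23 (edgeR adjusted p = 0.889).

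Glycam1 and Clu differed in the same sense. Glycam1 was at 2323 ± 964 CPM (n = 4) in peripheral and 4630.0 ± 1236 CPM in mesenteric cells of the other panels, and at 236 ± 286 and 80.0 ± 52.2 CPM in the Nts/Fgl2 cells (difference of log2 fold changes 2.70 ± 0.33, edgeR adjusted p = 2.3e-08). In the WT peripheral pool of library 1, at 637 CPM the highest of the 8, 1 cell held 117 of 274 Glycam1 UMIs. Without library 1 the difference fell to 1.16 (adjusted p = 1). Glycam1 was at 20451 CPM in blood endothelial cells, and the part of free RNA in its level was not tested. Clu was at 3457 ± 821 and 5922 ± 919.8 CPM in the other panels and at 467 ± 226 and 282 ± 124 CPM in the Nts/Fgl2 cells (1.69 ± 0.21, edgeR adjusted p = 3.3e-08; 0.93 with adjusted p = 0.302 without library 1).

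Postn went the other way. This matricellular protein was at 558 ± 153 CPM in peripheral and 116 ± 38.1 CPM in mesenteric cells of the other panels, and at 64.9 ± 16.6 and 66.5 ± 23.8 CPM in the Nts/Fgl2 cells. The difference of log2 fold changes was -2.35 ± 0.40 (edgeR adjusted p = 0.000115), and the call was lost without library 2 (-1.93, adjusted p = 0.193). For Nfatc1 the Nts/Fgl2 cells leaned to the mesenteric and the other panels to the peripheral side, at 110.5 ± 8.68 and 84.1 ± 11.3 CPM in the latter (-1.03 ± 0.27, edgeR adjusted p = 0.0485).

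**Figure D4:**
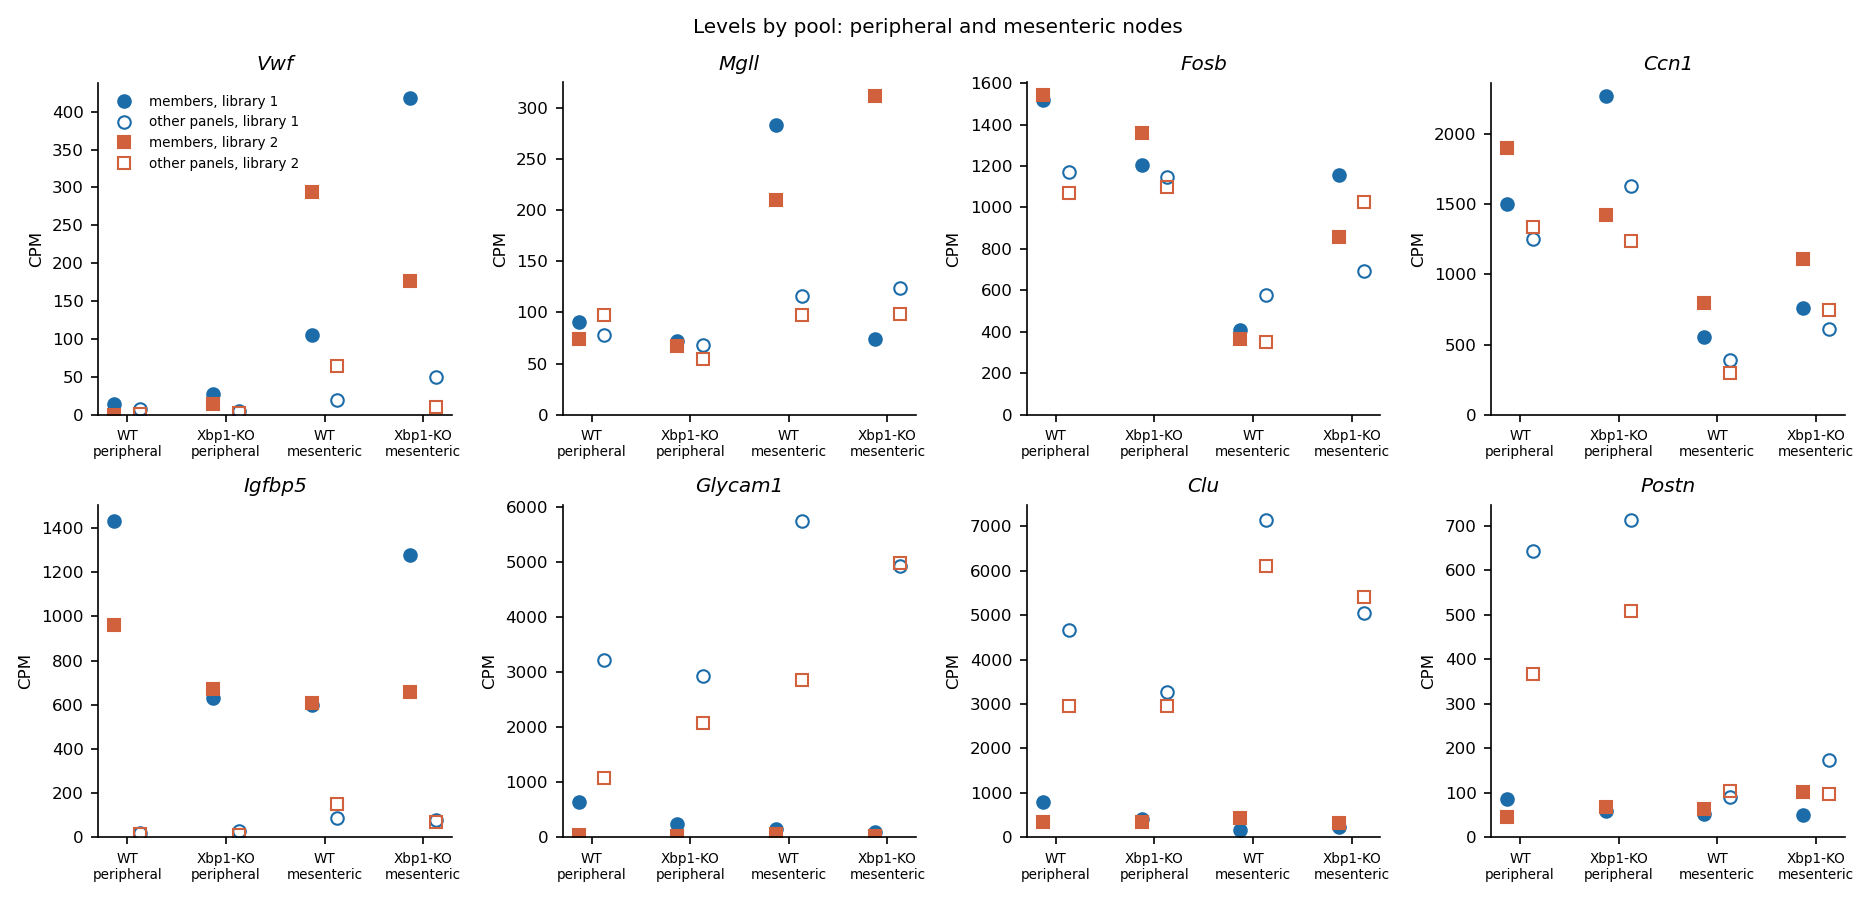
CPM by pool in Nts/Fgl2 cells (filled) and in the cells of the other 4 panels (open), for library 1 (circles) and library 2 (squares). Vwf is higher in mesenteric and Fosb and Ccn1 in peripheral pools of both classes, and Glycam1, Clu, Postn and Igfbp5 vary with tissue in the other panels.

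Xbp1 encodes a regulator of genes that ease protein folding stress, and its transcript was checked first. In the Nts/Fgl2 cells library 1 had 93.0 CPM in peripheral and 105 CPM in mesenteric pools of WT, and 38.9 and 49.1 CPM in those of Xbp1-KO. Library 2 had 37.0, 63.0, 48.1 and 67.4 CPM in the same order. The Xbp1-KO pools were the lower in both tissues of library 1 and the higher in both tissues of library 2, so in library 2 the Xbp1 count went against the labels, at a depth of 4 to 10 UMIs per pool. The log2 fold change of Xbp1-KO against WT was -0.68 ± 0.37 (edgeR adjusted p = 0.9995). Counts of the whole transcript do not show a deletion that leaves the rest of it in place, and below Xbp1-KO and WT stand for the pools so labelled.

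Between Xbp1-KO and WT, 0 of 3521 genes passed in edgeR over both tissues (0%), and DESeq2 also called 0. In edgeR 105 genes had an unadjusted p under 0.05. This count, and those given below for each tissue, are smaller shares of the 3521 genes than 0.05. A share of 0.05 would be met on average with no difference in any gene. Without library 1 10 genes passed, and without library 2 11. Xbp1, Xist and Ddx3y ran in opposite directions with genotype in the 2 libraries. The part of this in the pooled count was not tested. In peripheral nodes 0 passed, with 46 under an unadjusted 0.05. In mesenteric nodes 2 passed (0.0568%), Atf3 and Rgs16, with 148 under an unadjusted 0.05; with the library as a block 6 passed (0.17%), namely Atf3, Rgs16, Fos, Fosb, Zfp36 and Sertad1, all higher in Xbp1-KO.

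Atf3, a stress-induced transcription factor, was at 345 and 378 CPM in the WT and at 2039 and 1323 CPM in the Xbp1-KO mesenteric pools of libraries 1 and 2. In peripheral nodes it was at 877 and 1081 CPM for WT against 997 and 832 CPM for Xbp1-KO. The mesenteric groups did not overlap, the WT pools being the lowest of the 8. Atf3 was detected in 7 of 11 Xbp1-KO and 15 of 51 WT mesenteric cells of library 1. In library 2 these counts were 9 of 17 and 9 of 16. The cell with the most held 31 of 83 and 34 of 157 Atf3 UMIs in the Xbp1-KO mesenteric pools. In the WT mesenteric pools it held 24 of 72 and 9 of 36. The log2 fold change in mesenteric nodes was 2.20 ± 0.31 (edgeR adjusted p = 0.00499, 2 of 2 pairs), and 2.10 (adjusted p = 0.0898) without the WT mesenteric pool of library 1.

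Rgs16, a regulator of G-protein signalling, was at 91.1 and 73.4 CPM in the WT and at 565 and 362 CPM in the Xbp1-KO mesenteric pools, and at 351 and 489.9 against 485 and 486 CPM in peripheral nodes. The log2 fold change in mesenteric nodes was 2.39 ± 0.41 (edgeR adjusted p = 0.0333), and the call was lost without either WT mesenteric pool (2.55, adjusted p = 0.176, and 2.16, adjusted p = 0.296). Rgs16 was detected in 5 of 11 and 8 of 17 Xbp1-KO mesenteric cells, against 13 of 51 and 4 of 16 WT cells. The WT mesenteric pools were the low ones for both genes. The other panels went the same way in mesenteric nodes, from 229 and 341 CPM in WT to 578 and 752 CPM in Xbp1-KO for Atf3 and from 108 and 60.9 to 132 and 254 CPM for Rgs16, and the test of the genotype difference between classes, over both tissues, called 0 of these 2 genes. The test of the difference between tissues called 0 genes, with 102 under an unadjusted 0.05, also a smaller share than 0.05. Atf3 was first among those in which mesenteric cells differed more (-2.30 ± 0.42, edgeR adjusted p = 0.113). It was called with the library as a block (0.0284%).

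Genes of the response to dissociation were also higher by value in these pools. Of the 18 tested genes of that list, which holds Atf3, 1 was called and 17 were positive in mesenteric Xbp1-KO cells, with a median log2 fold change of 0.92 against -0.02 over all genes. Its summed level in the WT mesenteric pools was 14906 and 19526 CPM in Nts/Fgl2 cells and 15811 and 14398 CPM in the other panels, against 32820 and 26101, and 20795 and 24557 CPM, in the Xbp1-KO mesenteric pools. Its part in the difference of Atf3 and Rgs16 was not tested. The Xbp1-KO mesenteric pools hold 11 and 17 Nts/Fgl2 cells, with 40707 and 118691 UMIs.

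Targets of XBP1 in the endoplasmic reticulum did not pass the test. Of 44 listed genes 31 were tested, 0 were called, 13 were positive and the median log2 fold change of Xbp1-KO against WT was -0.02, against -0.01 over all 3521 genes. Hspa5, the chaperone BiP, was at 602 ± 94.5 CPM (n = 4 pools) for WT against 529.7 ± 154 CPM for Xbp1-KO, Hsp90b1 at 548 ± 62.6 and 549 ± 158 CPM, and Calr, calreticulin, at 396 ± 83.2 and 407 ± 104 CPM. Of 17 targets of the PERK and ATF4 arm 7 were tested; over both tissues 0 were called, 6 were positive and the median was 0.47, and in mesenteric nodes 1, Atf3, was called and the median was 0.71. Of 18 tested heat-shock genes 0 were called, with a median of 0.21, and of 25 tested interferon-stimulated genes 0 were called, with a median of -0.26.

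**Figure D5:**
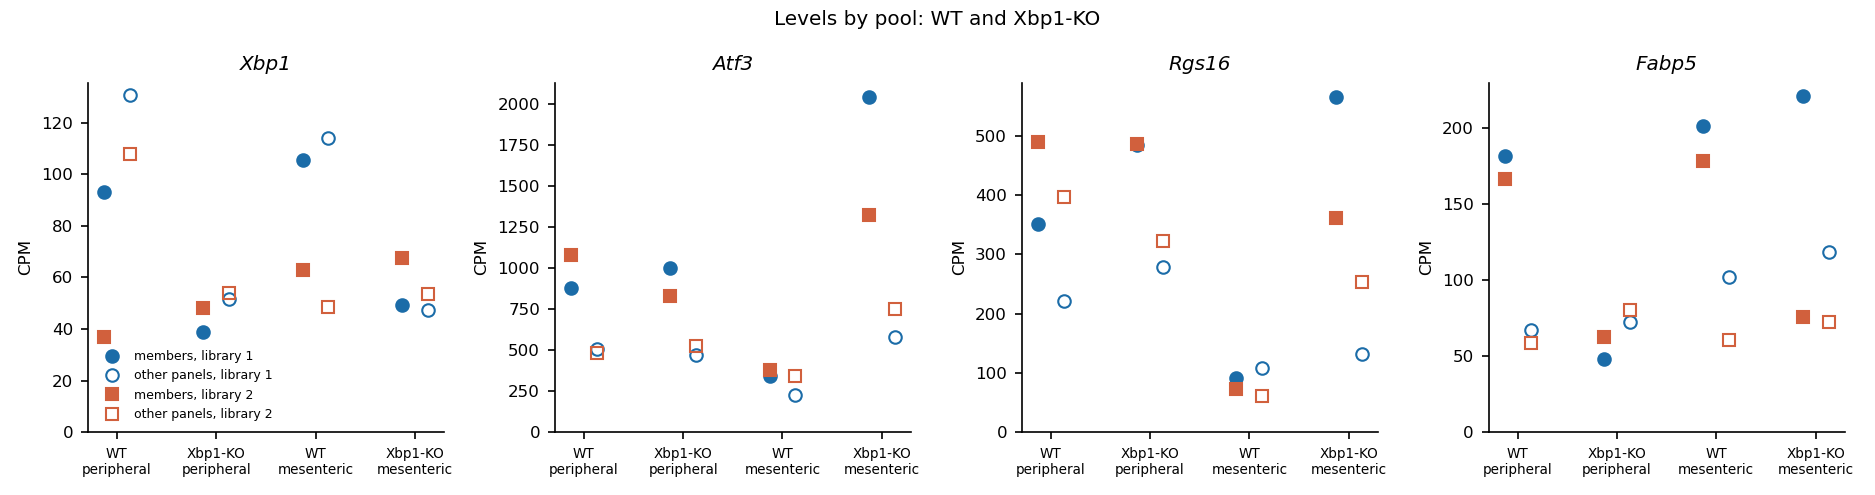
CPM by pool of Xbp1, Atf3, Rgs16 and Fabp5 in Nts/Fgl2 cells (filled) and other panels (open), for library 1 (circles) and library 2 (squares). Xbp1 is lower in the Xbp1-KO pools of library 1 but not of library 2, and Atf3 and Rgs16 are lowest in the WT mesenteric pools.

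The genotype difference of the Nts/Fgl2 cells differed from that of the other panels in 5 of 7274 genes (0.0687%), higher in 2 (0.0275%) and lower in 3 (0.0412%), and in 0 without the pool as a block. Fabp5, a fatty-acid carrier, was at 181, 201, 166 and 178 CPM in the WT pools and at 47.9, 221, 62.6 and 75.8 CPM in the Xbp1-KO pools (peripheral and mesenteric of library 1, then of library 2), so that 3 of 4 Xbp1-KO pools lay below every WT pool. In the other panels the WT level was 72.2 ± 20.1 CPM and the Xbp1-KO level 85.7 ± 22 CPM (n = 4). The difference of log2 fold changes was -1.47 ± 0.31 (edgeR adjusted p = 0.0283, 4 of 4 pairs), with the call lost without library 1 (-1.73, adjusted p = 0.366) or library 2 (-1.40, adjusted p = 1). Within the Nts/Fgl2 cells alone Fabp5 did not pass (log2 fold change -1.18 ± 0.31, edgeR adjusted p = 0.9995).

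Gdf15, a stress cytokine, was at 314, 47.9, 64.7 and 126 CPM for WT against 404, 0, 640.0 and 362 CPM for Xbp1-KO pools in the same order, with overlap, and 1 cell held 67 of 133 UMIs in the Xbp1-KO peripheral and 1 cell 36 of 43 UMIs in the Xbp1-KO mesenteric pool of library 2 (difference 1.44 ± 0.32, edgeR adjusted p = 0.0345; 0.19 with adjusted p = 1 without library 2). Glycam1 (-1.46 ± 0.32, edgeR adjusted p = 0.0345) lost its call without either library, at -1.73 and -1.13 (adjusted p = 1 for both), and its highest WT pool owed 117 of 274 UMIs to 1 cell. Ccl21a (-2.60 ± 0.51, edgeR adjusted p = 0.00989) rested on single cells: in the Xbp1-KO peripheral pool of library 1, 1 cell held 222 of 429 UMIs, and in the WT peripheral pool of library 2, 1 cell held 199 of 205. Its value changed sign without library 2 (0.086) and with thinned cells (0.19). Cxcl9 had UMIs in 1 pool only, the Xbp1-KO peripheral pool of library 1 at 65.9 CPM, so its fitted value has no meaning as a size.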

How the data were processed

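Single-cell RNA was measured in 2 libraries, each a mix of 4 hashtagged pools. The deposited files hold raw UMI counts per gene and cell barcode, made by the authors against mm10 (Cell Ranger version 6.0.1 per the headers of the deposited files, 6.1 per the submitters' processing notes), with barcodes already reduced to cells. The labels name chemistry v2 in one place and 3'v3 in another. Cells were kept with at least 500 genes, at most 10% mitochondrial UMIs, and a top hashtag of at least 10 UMIs and at least 3 times the next. The members, panels and gene lists were chosen with earlier results of these data known.

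UMIs were summed per library and hashtag, giving 8 sums of 40707 to 429917 UMIs, which limits the precision for low genes. CPM scales a gene's UMIs to a total of 1000000 in that sum. Sums were tested with edgeR 4.0.16 (quasi-likelihood, TMM, filterByExpr, R 4.3.3) and Benjamini-Hochberg adjusted p-values over all genes tested, called at 0.05; 22 rule genes were left out of the tests. Tissue and genotype differences of these cells and of the other panels were compared in 16 sums with the pool as a block. Scripts were tested on simulated data. Levels against the other panels are descriptions; log2 ratios there had 5 CPM added. Intervals are exact binomial at 95% and, like the floor of 3 counts, cover counting error only.

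Genes named are, per comparison, called genes with 1 direction in every pair of pools, those with the smallest p where few were called, the most abundant of each list, and the 25 highest and 15 lowest against the other panels. Pools of 1 library share its batch, per the labels; deviations of same-library pools correlated at 0.0299 to 0.183 (median 0.108, 3358 genes), and values with the library as a block are given where they change a call. Alternatives were another normalization (RLE), DESeq2 1.42.0, no filter on low counts, leaving out pools or libraries, at least 3 panel UMIs, a top tag at least 5 times the next, thinning to 2000 UMIs and removal of cells marked as doublets. Doublets were otherwise kept: Scrublet in scanpy 1.11.5 marked 153 cells of library 1 (2.13%), 1 of them a member, and 5 of library 2 (0.182%), where few were marked. Of 32285 gene IDs 99.6% matched GENCODE M21 for positions. Results for some genes are not reported here.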

Additional observations from a re-analysis of the deposited data

Results flagged for a closer look

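For the results given here, the tissue or genotype difference of the Nts/Fgl2 cells and that of the other lymphatic panels were unequal by the edgeR test of the difference itself, with the same sign in every pair of pools unless stated. Values are differences of log2 fold changes.

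For peripheral against mesenteric nodes, the Nts/Fgl2 cells leaned more to the peripheral side for Igfbp5 (2.74), Glycam1 (2.70), Clu (1.69), Ltc4s (2.69), Ces2g (3.20), Col12a1 (2.29), Gdf15 (1.95, 0 UMIs in 1 mesenteric pool), Cyp1b1 (1.83), F8 (1.74), Tspan7 (1.5), Cfb (1.46), Isg15 (1.41), Pgrmc1 (1.27) and Cd55 (1.20). Il4i1 had 0 UMIs in 5 of the 8 pools of Nts/Fgl2 cells, so its fitted 8.36 is not a size; Ces2g had 0 UMIs in 3 pools, Col12a1 and Cyp1b1 in 2, and Ltc4s and F8 in 1, all mesenteric, so their fitted values depend on the prior count too. The Nts/Fgl2 cells leaned more to the mesenteric side for Postn (-2.35), Net1 (-1.64), Ddah1 (-1.59), Adm (-1.54), Gpihbp1 (-1.35), Epas1 (-1.15) and Nfatc1 (-1.03). Without library 1 the differences of Glycam1 and Clu were smaller and their calls were lost. Postn lost its call without library 2.

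For Xbp1-KO against WT, the Nts/Fgl2 cells were lower relative to the other panels for Fabp5 (-1.47), Glycam1 (-1.46, with 117 of 274 UMIs of 1 WT pool in 1 cell) and Ccl21a (-2.60, 3 of 4 pairs; 0.086 without library 2 and 0.19 with thinned cells). The edgeR call of Fabp5 was lost without library 1 (-1.73, adjusted p = 0.366) and without library 2 (-1.40, adjusted p = 1), and that of Glycam1 likewise (-1.73 and -1.13, adjusted p = 1 in both). The Nts/Fgl2 cells were higher for Gdf15 (1.44, 3 of 4 pairs; when library 2 was left out, 0.19 and no call) and Cxcl9 (8.79, 1 of 4 pairs), the latter with UMIs in 1 pool only.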

How the results depend on the processing

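Counts of called genes depended on the settings, and the cause was not tested. With the library as a replicate block, 6 genes passed for Xbp1-KO in mesenteric nodes, 15 for tissue and 1 for the difference of the genotype effect between tissues; with a library-by-genotype term added, chosen after seeing the data, 4, 7 and 1 passed, and 1 for Xbp1-KO over both tissues. Without the pool as a replicate block, 0 genes passed for the genotype and 2 for the tissue difference between the Nts/Fgl2 cells and the other panels. With no filter on low counts, 6 passed for Xbp1-KO, 16 in mesenteric nodes, 41 for tissue and 5 for genotype by tissue. RLE gave 2 for tissue and 1 for the genotype difference between classes, and DESeq2 11 for tissue and 1 for genotype by tissue. At least 3 panel UMIs gave 7 for tissue. The stricter tag rule gave 1 for mesenteric Xbp1-KO, 2 for tissue and 2 for the genotype difference between classes, and removal of marked doublets 1 for the last. Thinned cells gave 1 for mesenteric Xbp1-KO, 2 and 13 for the genotype and tissue differences between classes, 7.58% for the share and 81 genes higher than in the other panels.

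Leaving out pools or libraries gave 0 to 11 genes for Xbp1-KO (10 without library 1, 11 without library 2, 1 without the WT and 2 without the Xbp1-KO mesenteric pool of library 1), and 0 each time in peripheral nodes. Mesenteric Xbp1-KO gave 1 (without the WT pool of library 1) to 9 (without the Xbp1-KO pool of library 1; 8 without that of library 2). Tissue gave 2 (without the Xbp1-KO peripheral pool of library 1) to 100 (without library 2), with 18 without library 1, 25 and 37 without the Xbp1-KO mesenteric pools, 17 without the WT mesenteric, 13 without the WT peripheral and 7 without the Xbp1-KO peripheral pool of library 2. Genotype by tissue gave 0 to 3, the latter without either Xbp1-KO mesenteric pool. Between classes, genotype gave 8 without library 1 and 2 without library 2, and tissue 11 and 30. With 1 library left an additive fit was used, and genotype by tissue was not run; a lone pool is assumed to vary like the others.

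Of 561 values of named genes under alternatives, 359 kept direction and side of the threshold, 195 kept direction but lost the call, and 7 changed sign. Ccl21a in the genotype difference between classes was -7.60 without library 1, 0.086 without library 2 and 0.19 when thinned. Cxcl9 there was -0.28 without library 1 and 10.35 without library 2, and -4.40 in the tissue difference when thinned. In the tissue difference Cxcl10 was -0.20 without library 1 and 5.81 without library 2, and Dcn -0.21 and 5.27. Xbp1 in peripheral nodes was 0.19 without the WT pool of library 1 and -1.10 without that of library 2.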
